A study of Mus musculus with 6 samples.

Results

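The 10 genes Cxcl1, Cxcl2, Cxcl5, Cxcl10, Cxcl16, Ccl20, Cx3cl1, Csf1, Il18 and Lif encode chemokines and cytokines that carcinoma epithelium can release. They were taken by gene symbol from the 53379 genes of the deposited tables, and each symbol matched 1 gene. All 10 reached at least 10 counts in 1 or more libraries, and 9 passed the filter on low counts and were tested (all but Il18). The RNA came from 6 epithelial organoid cultures of pancreatic tumours of KPC mice (strain C57/Bl6), grown in Matrigel domes. All cultures carry Pdx1-Cre, the recombinase driven by a promoter active in pancreatic epithelium. The heterozygous group (n = 3) has the genotype Trp53LSLR172H/+, with 1 R172H allele of Trp53 beside a wild-type allele. The LOH group (n = 3) has the genotype Trp53LSLR172H/- and is titled LOH, for loss of heterozygosity. Organoid lines 6, 23 and 34 each gave 1 library per group, so there is no replicate within a line. The descriptions of the LOH libraries end in the suffix Nut, which those of the heterozygous libraries lack. Its meaning is not given in the sources used here, and whatever it stands for cannot be told apart from the genotype. The comparison asks whether these transcripts change when the remaining wild-type allele is missing.

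Chemokines are small secreted proteins that steer leukocytes through receptors on the leukocyte surface. Cxcl1, Cxcl2 and Cxcl5 draw neutrophils through Cxcr2, Cxcl10 draws activated T cells through Cxcr3, and Ccl20 acts on Ccr6 of dendritic and T cells. Cxcl16 and Cx3cl1 are made as transmembrane proteins and are shed by the proteases Adam10 and Adam17. Csf1 keeps macrophages alive, Il18 is an interleukin that inflammatory caspases cut to its active form, and Lif signals through Lifr and Il6st to Stat3. Many of these genes are textbook targets of NF-kB, the transcription factor family of inflammation.

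The promoters of 3 chemokine genes are shown because the neighbours Cxcl1 and Cxcl2 carry the same run of letters, and Ccl20 a different match to the same consensus. RefSeq (GRCm38.p6) gave a start region for 8 of the 10 genes. Each line holds the 160 bases before the start on the gene's own strand, 5' to 3', with matches to the NF-kB consensus in capitals. They are chr5:90891085-90891244 for Cxcl1, chr5:90903739-90903898 for Cxcl2 and chr1:83116606-83116765 for Ccl20, all on the plus strand.
Cxcl1: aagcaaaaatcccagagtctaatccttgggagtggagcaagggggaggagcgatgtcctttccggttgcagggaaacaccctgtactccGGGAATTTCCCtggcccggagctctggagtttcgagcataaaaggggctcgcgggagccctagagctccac
Cxcl2: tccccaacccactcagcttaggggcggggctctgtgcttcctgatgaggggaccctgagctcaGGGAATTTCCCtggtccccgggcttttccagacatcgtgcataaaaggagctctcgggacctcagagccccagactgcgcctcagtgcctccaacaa
Ccl20: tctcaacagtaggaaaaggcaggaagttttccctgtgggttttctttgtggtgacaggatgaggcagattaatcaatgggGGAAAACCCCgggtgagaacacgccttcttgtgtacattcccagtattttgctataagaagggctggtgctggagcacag

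The consensus was searched on both strands in the window from 250 bases before to 50 bases after the start, where position 0 is the first transcribed base. In Cxcl1 the capitals span positions -71 to -61, and in Cxcl2 positions -97 to -87. Each of these runs holds 2 overlapping matches. Ccl20 had a match at -80 to -71, Csf1 at -154 to -145 and Lif at -178 to -169. Cxcl10 had 3 matches, of which 2 overlapped. In all, 6 of the 8 windows held the consensus, against 8.46% of 32851 windows of the same length in the table. Other motifs were less frequent in the 8 windows. AP-1 (TGANTCA) was found in 2, the TATA box letters TATAAA in 2, the ISRE core in 1 and GAS (TTCNNNGAA) in 0. Their shares among all windows were 7.81%, 13.6%, 3.44% and 8.30%. None of these matches overlapped an NF-kB match in the 8 windows. The letters TATAAA lay at -6 to -1 in Cx3cl1 and at -175 to -170 in Il18, and variants of them were not searched. A match describes letters and was not tested for binding.

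The libraries held 13680458 to 27917277 expected counts, with overlapping totals in the 2 groups. A count of 3, the floor used here, corresponded to 0.1001 to 0.2226 CPM (counts relative to library size, scaled by TMM). Trp53, the gene that defines the groups, had 76.3 to 86.5 CPM in heterozygous and 47.4 to 73.5 CPM in LOH libraries. Its log2 fold change was -0.47 (edgeR adjusted p = 0.227). The epithelial label was checked against keratins: Krt18 had 679 to 1510 TPM and Krt8 had 601 to 1189 TPM (transcript abundance scaled for gene length and library size). Of 10 fibroblast markers the summed level was at most 0.43 TPM in any library, and of 6 endothelial markers at most 0.88 TPM. The 15 leukocyte markers summed to 38.1 to 44.9 TPM in heterozygous and 29.5 to 174 TPM in LOH libraries, most of it from Cd14, Ly6g and Cd68. Lyz2, Adgre1, Csf3r and Tyrobp, which define macrophages, neutrophils and other myeloid cells, had 0 counts in every library, and Ptprc (CD45) had at most 7. Ly6g, a neutrophil surface gene, had 143 TPM in the LOH library of line 34 and at most 12.8 TPM elsewhere. That library also held the highest CPM of Cxcl1, Cxcl2, Cxcl5, Cxcl16, Csf1 and Lif, and the part of the Ly6g signal in those values was not tested. In cultured organoids, fewer producing cells and less RNA per cell cannot be told apart.

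Cxcl5 was the most abundant of the 10 transcripts in each of the 6 libraries, at 114 ± 62.6 TPM (SD over 6 libraries). Cxcl16 followed at 35.5 ± 8.53 TPM, then Ccl20 at 21.7 ± 13.8 and Cxcl1 at 16.9 ± 20.01 TPM. Cx3cl1 had 8.79 ± 4.01 TPM, Cxcl2 5.53 ± 4.48, Lif 2.93 ± 1.52 and Csf1 1.37 ± 0.22 TPM. Il18 and Cxcl10 were lowest, at 1.01 ± 1.66 and 0.76 ± 0.48 TPM. The first 5 places were the same in the 3 heterozygous libraries, and no 2 neighbours among Cxcl5, Cxcl16, Ccl20, Cxcl1, Cx3cl1 and Cxcl2 overlapped there. In the LOH libraries only Cxcl5 and Cxcl16 kept ranges that did not overlap, and all later neighbours did overlap. Cxcl1 was in place 5, 6 and 2 in the LOH libraries of lines 6, 23 and 34. The summed level of the 10 genes was 182, 166 and 154 TPM in the heterozygous and 123, 267 and 359 TPM in the LOH libraries, in that order of lines. Cxcl5 alone made up 42.3% to 60.9% of it.

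**Figure D1:**
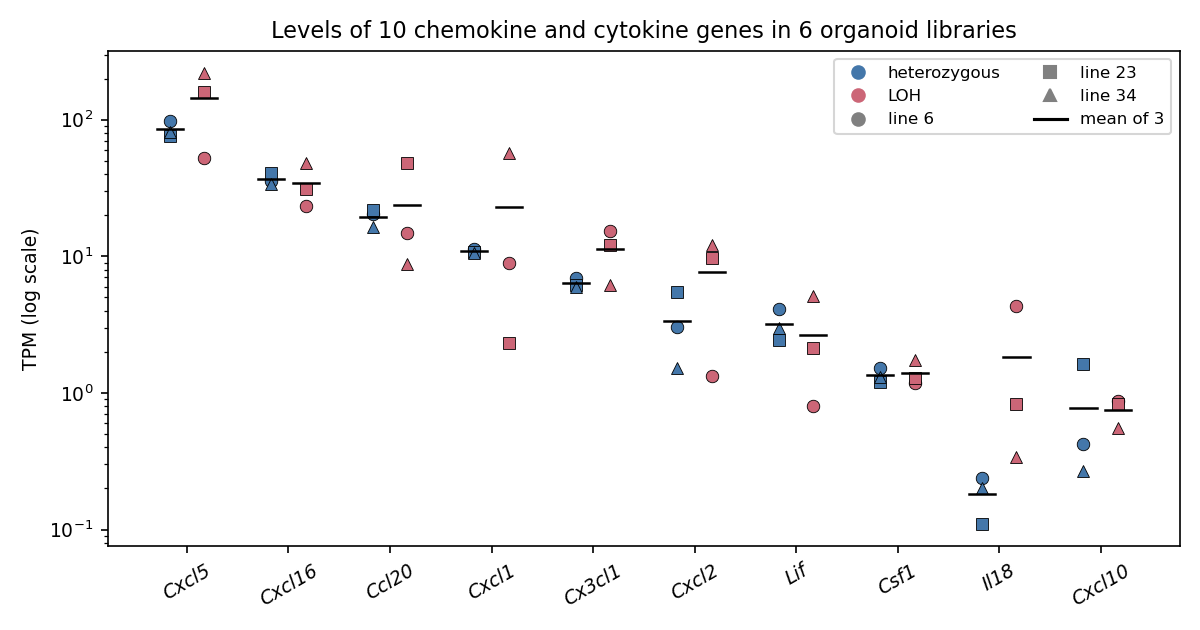
TPM on a log scale of the 10 genes in order of mean level. Each point is 1 library (blue heterozygous, red LOH; circle line 6, square line 23, triangle line 34) and bars are means of 3. Heterozygous points of Cxcl1 lie between 10.7 and 11.3 TPM, whereas LOH points lie between 2.32 and 57.1 TPM.

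None of the 9 tested genes passed an adjusted p of 0.05 in the quasi-likelihood test of edgeR, neither without a block nor with the organoid line as a block, and none passed with DESeq2 or with limma on TPM. Over all 14537 tested genes 5.21% passed without the block and 1.47% with it. At an unadjusted p under 0.05 there was 1 of the 9 (Cx3cl1), against 25.3% of all genes. All 9 fold changes were above 0, against 54.0% of all genes. Their median was 0.70 on the log2 scale, against 0.06 for all genes. Without the LOH library of line 34, 6 of the 9 were above 0, against 52.0% of all genes. Without both libraries of line 34 there were 5 of the 9, against 51.3%. Each other fit that left out a library or a line had 7 or more above 0. Relative TPM gave another picture. With limma on log2(TPM + 1), 5 of 8 were above 0 with a median of 0.05, while the median of all genes moved to -0.35. On that scale 26.1% of all genes were above 0. Groups did not overlap in CPM for 1 of the 9 (Csf1), against 32.8% of all genes. The direction was the same in the 3 lines for 2 of the 9 (Cx3cl1 and Csf1), against 44.5% of all genes.

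**Figure D2:**
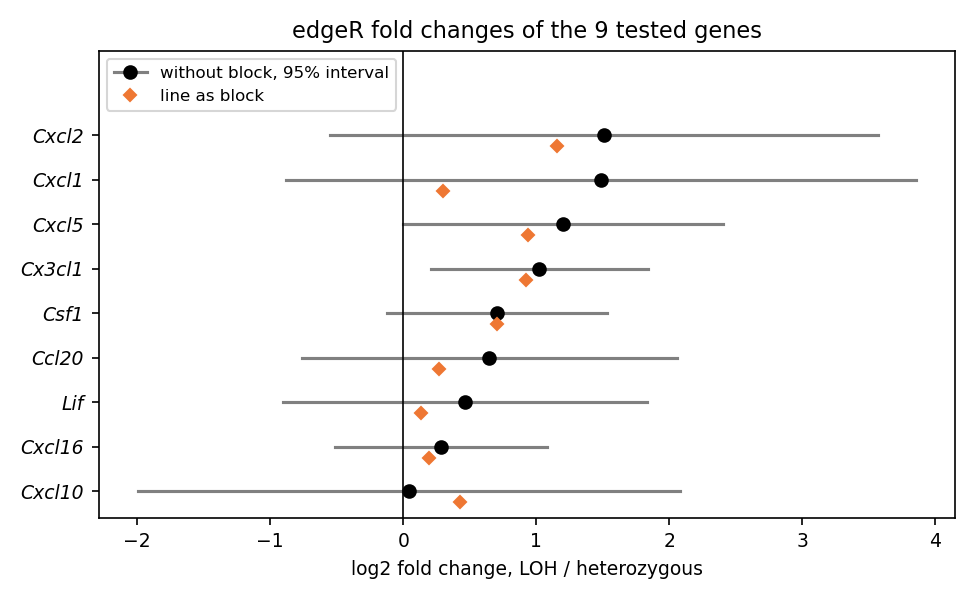
Log2 fold changes of the 9 tested genes, LOH over heterozygous, from edgeR. Black points and grey bars give the test without a block and its 95% interval, and diamonds the fit with the organoid line as a block. The interval of Cx3cl1 runs from 0.21 to 1.84, and those of the other 8 genes include 0.

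Among the neutrophil chemokines, Cxcl1 (ENSMUSG00000029380.11; chromosome 5, 90891241 to 90893115, plus strand, GRCm38) had nearly equal levels in the heterozygous libraries and very unequal ones in the LOH libraries. For lines 6, 23 and 34 in turn, heterozygous CPM was 7.97, 8.98 and 8.58 (239, 121 and 257 counts). LOH CPM was 7.92, 2.53 and 61.0 (136, 67 and 1310 counts). The LOH library of line 34 was thus 7.11 times its heterozygous partner, that of line 23 was 0.282 times and that of line 6 was 0.993 times. The means were 8.51 ± 0.51 and 23.8 ± 32.3 CPM (SD, n = 3 each). In edgeR the log2 difference came to 1.49 with an SE of 1.005 and an adjusted p of 0.389, with a 95% interval from -0.88 to 3.85. Blocked by organoid line it was 0.30 (edgeR adjusted p = 0.882), and without the LOH library of line 34 it was -0.72.

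Cxcl2 (ENSMUSG00000058427.10; chromosome 5, 90903871 to 90905938, plus strand) lies 10756 bases beyond the end of Cxcl1. Heterozygous CPM was 1.87, 5.64 and 1.502 and LOH CPM 1.22, 10.3 and 13.6 for lines 6, 23 and 34. The LOH libraries of lines 23 and 34 were the highest of the 6 and that of line 6 the lowest, so the groups overlapped. On the log2 scale edgeR put the difference at 1.51, with SE 0.87 and adjusted p 0.323. In the LOH libraries of lines 23 and 34 its estimated counts, 272.52 and 292.71, were not whole. Summed with the 240.48 and 402.29 counts of its close paralog Cxcl3 they gave 513 and 695, so RSEM had shared reads between the 2 genes. The ratio of Cxcl1 to Cxcl2 TPM was 1.94 to 7.05 among heterozygous libraries; LOH ratios were 6.83, 0.238 and 4.74 for lines 6, 23 and 34. Cxcl1 exceeded Cxcl2 in every library but LOH line 23.

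Cxcl5 (ENSMUSG00000029371.7; chromosome 5, 90759360 to 90761624, plus strand) starts the same gene cluster, 129617 bases before Cxcl1. Heterozygous CPM was 112, 105 and 108 and LOH CPM 80.04, 268 and 399 for lines 6, 23 and 34. Its heterozygous SD of 0.04 on the log2 scale was in the lowest 3.16% of tested genes. LOH lines 23 and 34 lay above all heterozygous libraries and LOH line 6 lay below them. LOH over heterozygous, the estimate was 1.202 on the log2 scale, SE 0.51, at an edgeR adjusted p of 0.198, with a 95% interval from -0.0007 to 2.40. Without the LOH library of line 6 it was 1.58 and passed (edgeR adjusted p = 0.017), and leaving out line 6 entirely gave 1.62 (edgeR adjusted p = 0.0409). Those fits called 2449 of 15132 and 1422 of 14727 tested genes, against 757 of 14537 with all 6 libraries.

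The cluster on chromosome 5 holds 7 CXC genes in the annotation, and the 7 were tested. Between Cxcl5 and Cxcl1 lie Ppbp and Pf4, best known as platelet chemokines, then Cxcl3 and Cxcl15. Ppbp had 0.5, 0.668 and 2.57 CPM in the heterozygous and 3.03, 13.5 and 51.2 CPM in the LOH libraries of lines 6, 23 and 34. In edgeR the log2 difference was 4.14 with SE 1.13 (adjusted p = 0.0794), and in the fit blocked by line 3.78 with SE 0.48 (adjusted p = 0.0397). Pf4, its next neighbour, had 1.435 to 3.34 CPM in heterozygous and 0.116 to 0.831 CPM in LOH libraries (log2 fold change -2.51, edgeR adjusted p = 0.0925). Pf4 passed the filter on low counts only through the heterozygous libraries, with 2, 22 and 5 counts in the LOH ones. Cxcl3 had a log2 fold change of 0.48 (edgeR adjusted p = 0.625), and of -0.26 without the LOH library of line 34. The neighbours Ppbp and Pf4 thus had estimates of opposite sign, and neither passed in edgeR without a block. Other settings did call them: DESeq2 gave adjusted p-values of 0.000174 for Ppbp and 0.0147 for Pf4, and called 2290 of 14537 tested genes. With no filter on low counts Ppbp passed in edgeR (adjusted p = 0.0331). Pf4 passed with limma on log2(TPM + 1) (adjusted p = 0.0195) and log2(TPM + 0.1) (adjusted p = 0.0259). These limma fits called 1631 and 1486 of 11918 tested genes lower in LOH. Leaving out the LOH library of line 6 let Ppbp pass (edgeR adjusted p = 0.0274), a fit that called 2449 of 15132 tested genes. Leaving out that of line 23 let Pf4 pass (edgeR adjusted p = 0.0492), a fit that called 451 of 14950.

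**Figure D3:**
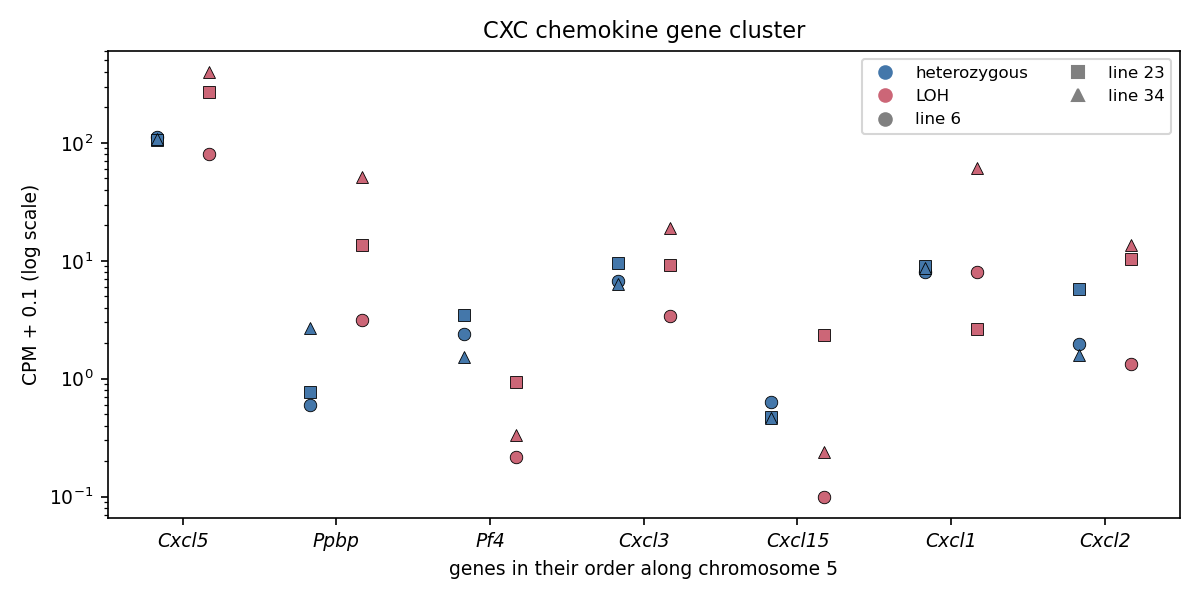
CPM plus 0.1, on a log scale, of the 7 CXC genes in their order along chromosome 5. Each point is 1 library, coloured by group and shaped by organoid line. Ppbp lies higher in all LOH libraries (3.03 to 51.2 CPM) and Pf4 lower (0.116 to 0.831 CPM), whereas the groups overlap for the other 5.

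Cxcl10 (ENSMUSG00000034855.13; chromosome 5, 92346638 to 92348889, minus strand), the interferon-induced chemokine, had the lowest mean TPM of the 10. It had 6, 22 and 7 counts in the heterozygous and 6, 24 and 15 counts in the LOH libraries of lines 6, 23 and 34. In CPM these were 0.2, 1.63 and 0.234, and 0.349, 0.906 and 0.698. The highest and the lowest value both came from heterozygous libraries. The exact 95% Poisson interval of the highest ran from 1.02 to 2.47 CPM and of the lowest from 0.0735 to 0.436 CPM, covering counting error only. In edgeR the log2 difference came to 0.04 with an SE of 0.87 and an adjusted p of 0.983, with an interval from -1.998 to 2.08, and it took either sign when single libraries were left out. The counting intervals of those 2 heterozygous libraries did not overlap. Art3, which spans the gene on the opposite strand, had at most 3 counts.

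Cxcl16 (ENSMUSG00000018920.11; chromosome 11, 70453983 to 70459984, minus strand), which binds Cxcr6 on T and NKT cells, was next in level after Cxcl5. Heterozygous CPM was 49.5, 66.8 and 54.04 and LOH CPM 41.2, 63.3 and 103 for lines 6, 23 and 34. LOH line 34 was the highest and LOH line 6 the lowest, with the other 4 libraries between them. On the log2 scale edgeR put the difference at 0.28, with SE 0.34 and adjusted p 0.625, with an interval from -0.51 to 1.08. It was -0.12 without the LOH library of line 34 and -0.15 with limma on log2(TPM + 1). The transcript that codes for the protein took 37.6% to 44.9% of the gene's TPM, and 48.4% to 59.2% was assigned to a transcript annotated for nonsense-mediated decay. Zmynd15 overlaps 552 bases of the gene on the opposite strand and had 23.1 to 96.2 counts.

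Cx3cl1 (ENSMUSG00000031778.13; chromosome 8, 94772009 to 94782427, plus strand), fractalkine, was higher in the LOH library of each line. Heterozygous CPM was 16.9, 18.8 and 15.1 and LOH CPM 44.2, 41.04 and 17.97 for lines 6, 23 and 34. The LOH libraries of lines 6 and 23 lay above all heterozygous libraries, while that of line 34 lay inside their range. The means were 16.96 ± 1.88 and 34.4 ± 14.3 CPM (SD, n = 3 each). LOH over heterozygous, the estimate was 1.02 on the log2 scale, SE 0.35, at an edgeR adjusted p of 0.124, and 0.92 (SE 0.31, edgeR adjusted p = 0.195) with the block. Without the LOH library of line 34 it was 1.33 and passed (edgeR adjusted p = 0.0271), in a fit that called 796 of 15092 tested genes. The 3 lines thus ranked differently from the neutrophil chemokines, for which line 34 had the largest ratio.

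Ccl20 (ENSMUSG00000026166.14; chromosome 1, 83116766 to 83119167, plus strand) stood out in line 23. Heterozygous CPM was 10.7, 13.9 and 10.1 and LOH CPM 10.2, 36.8 and 7.08 for lines 6, 23 and 34. LOH line 23 was 2.66 times its heterozygous partner and the highest of the 6 libraries, and LOH line 34 was the lowest. In edgeR the log2 difference came to 0.65 with an SE of 0.60 and an adjusted p of 0.524, and it was 0.27 when blocked by line and -0.42 without the LOH library of line 23.

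Of the cytokines, Csf1 (ENSMUSG00000014599.10; chromosome 3, 107741048 to 107760469, minus strand) was low in all libraries, and its CPM did not overlap between the groups. Heterozygous CPM was 3.77, 2.30 and 3.67 and LOH CPM 4.13, 4.87 and 6.94 for lines 6, 23 and 34, from 31 to 149 counts. On the log2 scale edgeR put the difference at 0.70, with SE 0.35 and adjusted p 0.259, with an interval from -0.12 to 1.53. In TPM the means were 1.34 ± 0.16 and 1.40 ± 0.30 (SD, n = 3 each), and limma on log2(TPM + 1) gave a log2 difference of 0.03. Csf1 is spliced into a long secreted form and a short form held on the cell surface. Transcripts with the long reading frame took 50.5%, 28.7% and 63.4% of the gene's TPM in the heterozygous and 74.5%, 67.3% and 74.1% in the LOH libraries. The transcript with the short reading frame took 36.8%, 15.2% and 27.8%, and 6.49%, 9.99% and 18.3%. The long-form shares of the groups did not overlap, but RSEM divided few counts between 7 transcripts, so no test was made. In heterozygous line 23 a short fragment annotated as coding took 56.1% from 31 counts of the gene.

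Il18 (ENSMUSG00000039217.13; chromosome 9, 50554827 to 50581840, plus strand) was close to absent in the heterozygous libraries and detected in each LOH library. It had 4, 1 and 3 counts in the heterozygous and 56, 18 and 6 counts in the LOH libraries of lines 6, 23 and 34. In CPM these were 0.133, 0.0742 and 0.1, and 3.26, 0.68 and 0.279, so the groups did not overlap, as for 32.8% of all tested genes. The exact 95% Poisson interval of LOH line 34 ran from 0.103 to 0.608 CPM and overlapped that of each heterozygous library. The ratio of LOH to heterozygous CPM was 24.4 in line 6 (exact 95% counting interval 9.03 to 92.8), 9.16 in line 23 (1.45 to 382) and 2.79 in line 34 (0.596 to 17.2). The gene did not pass the filter on low counts. In the edgeR test with no filter its log2 fold change was 3.61 (SE 0.95), with an unadjusted p of 0.00261 and an adjusted p of 0.0599 over 27027 genes, which did not pass. Bco2, which overlaps 355 bases of Il18 on the opposite strand, had 2, 0 and 2 counts in the heterozygous and 21, 10 and 5 in the LOH libraries. The kit marks strand but the strand setting of the counting is not given in the sources used here, and a part of Bco2 in the Il18 counts was not tested. Tex12, also on the opposite strand, had 0 counts in every library.

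Lif (ENSMUSG00000034394.14; chromosome 11, 4257557 to 4272514, plus strand), a cytokine of the interleukin-6 family, followed the order of the lines seen for Cxcl16. Heterozygous CPM was 8.04, 7.64 and 5.81 and LOH CPM 3.26, 7.55 and 18.8 for lines 6, 23 and 34. LOH line 34 was 3.24 times its partner, LOH line 23 was 0.988 times and LOH line 6 was 0.405 times. LOH over heterozygous, the estimate was 0.47 on the log2 scale, SE 0.58, at an edgeR adjusted p of 0.643, and it was 0.13 when blocked by line and -0.40 without the LOH library of line 34. In LOH line 6 all of the 56 counts were assigned to 1 transcript (Lif-202), which took 4.56% to 27.5% of the TPM in the heterozygous libraries.

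The line ratios show that the genes did not share 1 pattern. In line 34 the log2 ratios of LOH over heterozygous CPM were 2.82 for Cxcl1, 3.11 for Cxcl2, 1.89 for Cxcl5 and 1.68 for Lif, with Ccl20 at -0.51. In line 23 they were -1.79 for Cxcl1, 0.86 for Cxcl2, 1.34 for Cxcl5, 1.40 for Ccl20 and -0.02 for Lif. In line 6 they were -0.01 for Cxcl1, -0.58 for Cxcl2, -0.48 for Cxcl5, -0.07 for Ccl20 and -1.28 for Lif, while Cx3cl1 (1.38) and Il18 (3.93) were highest there. Each ratio rests on 1 library per group, so differences between lines were not tested.

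**Figure D4:**
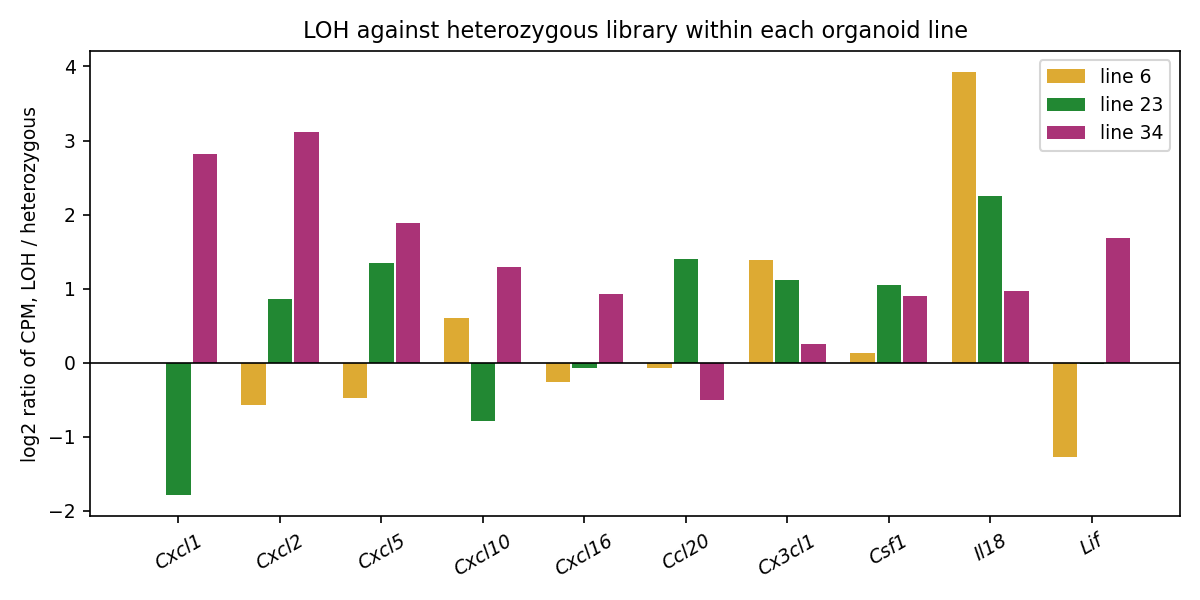
Log2 ratio of LOH over heterozygous CPM (prior count 2) for each gene within organoid lines 6, 23 and 34, 1 library against 1. Line 34 has the largest bars for Cxcl1 (2.82) and Cxcl2 (3.11), line 6 for Il18 (3.93), and Cxcl1 points down in line 23 (-1.79).

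The spread within groups was also described. The median SD of log2 CPM over the 9 genes was 0.24 in the heterozygous and 1.21 in the LOH libraries, against 0.21 and 0.45 for all tested genes. The LOH SD was above the heterozygous one in 7 of the 9 genes, against 79.1% of all genes, which is near the background. It was above 1, a bound chosen after the values were seen, in 5 of the 9 genes (Cxcl1, Cxcl2, Cxcl5, Ccl20 and Lif), against 15.3% of all genes. For Cxcl1 the LOH SD of 2.30 was reached by 1.62% of tested genes, while its heterozygous SD of 0.09 was in the lowest 12.6%. Csf1 and Cxcl10 were the exceptions, with LOH SDs below the heterozygous ones.

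**Figure D5:**
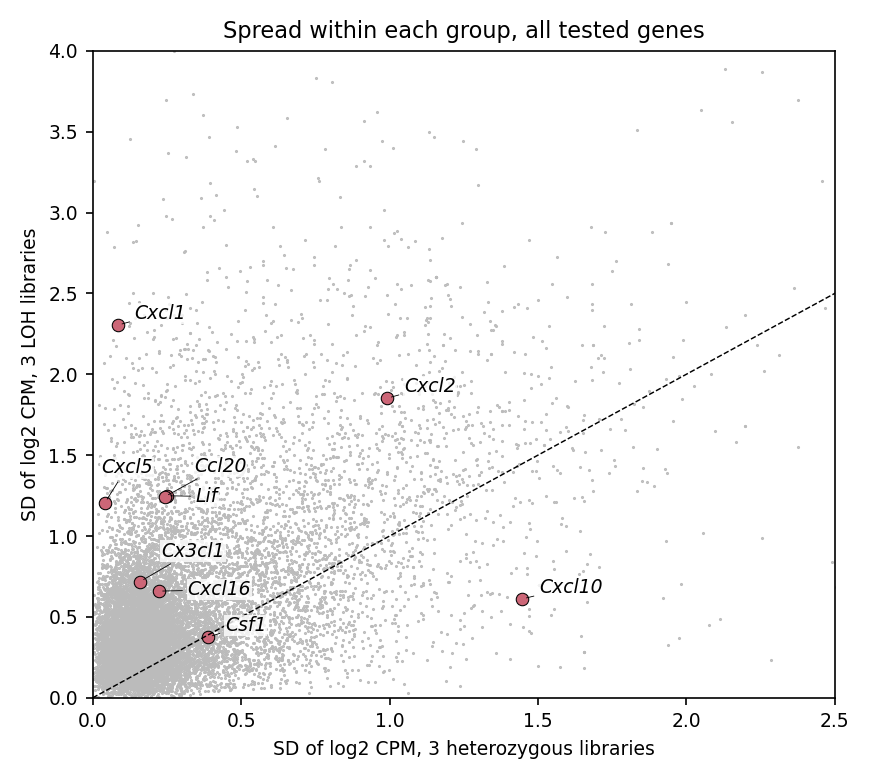
SD of log2 CPM over the 3 heterozygous libraries (x) and over the 3 LOH libraries (y) for the tested genes (grey; 36 lie beyond the axes) and the 9 genes (red). The dashed line marks equal spread, and 7 of the 9 genes lie above it, with Cxcl1 at 0.09 and 2.30.

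A list of 12 receptors was examined next, made up of receptors for these ligands and scavenging receptors of chemokines. Several of those of leukocytes had few counts. Cxcr3 and Ccr6 had 0 counts in every library, Cx3cr1 at most 2 and Csf1r at most 16. Cxcr2 had 2, 2 and 6 counts in the heterozygous and 2, 34 and 17 in the LOH libraries of lines 6, 23 and 34. It did not pass the filter on low counts and was not tested. A count of 0 allows up to 0.1001 to 0.2226 CPM, depending on the library. Of 5 receptors tested 4 rose in LOH libraries (Il18rap, Il18r1, Lifr and Ackr3) and 0 fell, where 3.55% of all genes rose and 1.66% fell. In this and the later lists, rose and fell refer to edgeR without a block. With the organoid line as a block 0 of the 13 genes so called passed. Ackr3 passed the filter on low counts only through the LOH libraries, so its place in that count followed from its direction, and the count is a description. Il18rap and Il18r1, the 2 chains of the IL-18 receptor, both rose. Il18rap had 0.701 to 0.965 CPM in heterozygous and 3.68 to 4.13 CPM in LOH libraries (log2 fold change 2.21, SE 0.33, edgeR adjusted p = 0.0219). Il18r1 had 0.567 to 1.53 and 4.005 to 11.8 CPM (log2 fold change 2.82, SE 0.61, edgeR adjusted p = 0.0477). Lifr, the ligand-binding chain for Lif, rose from 16.03 to 30.9 CPM in the heterozygous to 62.8 to 84.9 CPM in the LOH libraries (log2 fold change 1.57, SE 0.28, edgeR adjusted p = 0.0314). Ackr3, a scavenging receptor whose known chemokine ligands are not among the 10 genes, rose from 0.134 to 0.297 CPM to 0.982 to 1.40 CPM (log2 fold change 2.45, edgeR adjusted p = 0.0358). Il6st, the chain shared by the interleukin-6 family, had a log2 fold change of -0.41 (edgeR adjusted p = 0.405).

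In the list of LIF to STAT3 signalling, 2 of 9 tested genes rose (Lifr and Cish) and 0 fell, against 3.55% and 1.66% of all genes. Cish passed the filter only through the LOH libraries, with at most 7.78 counts in a heterozygous one. Its place in that count thus followed from its direction, and the count is a description. Lifr was already counted among the receptors. Cish, a feedback inhibitor of cytokine receptors, rose from 0.1 to 0.267 CPM in the heterozygous to 1.07 to 2.60 CPM in the LOH libraries (edgeR adjusted p = 0.0283). Stat3 itself had a log2 fold change of 0.42 (edgeR adjusted p = 0.178), and the abundant signalling genes Jak1 and Ptpn11 did not pass (edgeR adjusted p = 0.203 and 0.234). In the list of IL-18 maturation, 1 of 7 tested genes rose and 0 fell, against 3.55% and 1.66% of all genes. This was Nlrc4, an inflammasome gene, with 6.45 to 7.84 CPM in heterozygous and 14.6 to 21.1 CPM in LOH libraries (log2 fold change 1.27, edgeR adjusted p = 0.0324). Nlrp6, another inflammasome gene, had a log2 fold change of 4.48 and did not pass (edgeR adjusted p = 0.059), nor did Gsdmd, the pore-forming gasdermin D (0.175), or Naip5 (0.26). Casp1, the protease that cuts Il18, had at most 11 counts in any library. Of the 4 genes of chemokine shedding 0 passed with edgeR, with 1 at an unadjusted p under 0.05. Adam10 had a log2 fold change of 0.81 (edgeR adjusted p = 0.364) and Adam17 one of -0.06 (edgeR adjusted p = 0.842). For Rhbdf1 and Rhbdf2, partners of Adam17, edgeR gave adjusted p-values of 0.138 and 0.432.

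The NF-kB pathway list had 1 riser among 19 tested genes and 0 that fell, near the 3.55% and 1.66% of all genes. Nfkb2, the precursor of the p52 subunit, rose from 28.7 to 29.97 CPM in the heterozygous to 43.8 to 76.4 CPM in the LOH libraries (log2 fold change 1.15, SE 0.25, edgeR adjusted p = 0.0473). The median of the list was 0.41 on the log2 scale, against 0.06 for all genes, with 14 of 19 genes above 0, against 54.0% of all genes. Nfkbia, the inhibitor that NF-kB induces, had line ratios (log2) of 0.62, 1.85 and 1.21 for lines 6, 23 and 34 (edgeR adjusted p = 0.0943). Nfkb1, the precursor of p50, had a log2 fold change of -0.12 (edgeR adjusted p = 0.664), and Tnfaip2 and Chuk did not pass (edgeR adjusted p = 0.488 and 0.519). Among 10 interferon regulators that act on Cxcl10, 2 rose and 0 fell, against 3.55% and 1.66% of all genes. Irf7 rose from 1.70 to 2.003 CPM in the heterozygous to 5.36 to 15.9 CPM in the LOH libraries (edgeR adjusted p = 0.0422). Ifngr2, a chain of the interferon-gamma receptor, rose from 27.1 to 40.4 CPM to 67.4 to 96.0 CPM (edgeR adjusted p = 0.031). Ifngr1, its partner chain, did not pass (edgeR adjusted p = 0.445), nor did Ifnar1 (0.478) or Irf3 (0.941).

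Other secreted factors were read for comparison. Of 24 further chemokines 8 were tested, of which 0 rose and 1 fell, against 3.55% and 1.66% of all genes. This was Ccl2, which recruits monocytes and had 2.24 to 4.04 CPM in heterozygous and 0.113 to 0.605 CPM in LOH libraries (log2 fold change -3.10, SE 0.65, edgeR adjusted p = 0.0434). Ccl2 passed the filter on low counts only through the heterozygous libraries, with 5, 3 and 13 counts in the LOH ones. Its place in that count thus followed from its direction, and the count is a description. Ccl25 did not pass (edgeR adjusted p = 0.831). Of 21 further cytokines 12 were tested, of which 3 rose and 0 fell, against the same shares. The 2 most abundant of the list apart from Spp1, Mif at 499 TPM and Il1rn at 76.8 TPM, did not pass (edgeR adjusted p = 0.581 and 0.53). Il33, an alarmin of epithelial cells, rose from 24.7 to 44.3 CPM to 102 to 112 CPM (log2 fold change 1.55, SE 0.25, edgeR adjusted p = 0.0261). Csf3, the growth factor of neutrophils, rose from 0.734 to 0.935 CPM to 2.27 to 8.66 CPM (log2 fold change 2.71, edgeR adjusted p = 0.0388). Il1a, another alarmin, rose from 0.0668 to 1.34 CPM to 6.99 to 17.7 CPM (edgeR adjusted p = 0.0413). Il1a passed the filter on low counts only through the LOH libraries, with 16, 18 and 2 counts in the heterozygous ones. Its place among the 3 that rose thus followed from its direction, and the count is a description. Spp1, osteopontin, had a log2 fold change of -1.08 (edgeR adjusted p = 0.0585), and did not pass with the block either (edgeR adjusted p = 0.112). It passed in edgeR with upper quartile scaling (adjusted p = 0.046) and with no filter (adjusted p = 0.0378). DESeq2 also called Spp1 (adjusted p = 0.0029), as did limma on log2(TPM + 1) (adjusted p = 0.0174) and log2(TPM + 0.1) (adjusted p = 0.0197). DESeq2 called 2290 of 14537 tested genes in either direction. The limma fits called 1631 and 1486 of 11918 tested genes lower in LOH, and their medians of all genes were -0.35 and -0.42. Calls of lower genes were thus common on the TPM scales. With the organoid line as a block none of the 13 genes of these lists that passed did so, at edgeR adjusted p-values from 0.0662 to 0.124. Without any 1 of the heterozygous libraries none of the 13 passed (0.098 to 0.217), and 0 of all tested genes did. Without the LOH library of line 23 only 3 of the 13 passed, with adjusted p-values of the 13 from 0.0429 to 0.0932. Without both libraries of line 23, or of line 34, 0 of the 13 and 0 of all tested genes passed. Without those of line 6 there were 7 of the 13 that did not pass, and without the LOH library of line 34 there were 4. Where at least 10 counts were asked of every library, Ackr3, Cish, Il1a and Ccl2 were not tested and the other 9 passed. Ccl2 did not pass without the LOH library of line 6 (edgeR adjusted p = 0.0508), and Ackr3 did not pass with no filter (edgeR adjusted p = 0.0561). With limma on either TPM scale 10 of the 13 were tested, and Nfkb2, Irf7, Il18r1 and Nlrc4 did not pass, with adjusted p-values of the 10 up to 0.0966 and 0.1005.

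For the 2 most abundant genes, the genes with the most similar profile were found by the root mean square distance of centred log2 CPM over the 6 libraries, among 12677 other genes of at least 1 CPM on average. The nearest to Cxcl5 were Col18a1 (0.13), Fgd6 (0.16) and Bach1 (0.16), against a median distance of 0.93. Col18a1 encodes a basement membrane collagen and had line ratios (log2) of -0.40, 1.03 and 1.80 for lines 6, 23 and 34. The nearest to Cxcl16 were Ccpg1os (0.044), Gabarapl1 (0.095) and Sat1 (0.104), against a median of 0.59. Among the 9 genes themselves the closest pair was Cxcl16 and Lif (0.39), and the most distant was Cxcl1 and Ccl20 (1.999). The neighbours Cxcl1 and Cxcl2 were 1.61 apart. These distances share libraries and lines and describe the profiles only.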

How the data were processed

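Total RNA libraries were made with a stranded kit, per the labels' protocols. The submitters' processing notes name STAR 2.5.2b, RSEM 1.3.0, DESeq2 1.44.0 and GRCm38.p5. The strand setting and read filters are not given in the sources used here. A further allele that both groups share is not reported here. Gene-level expected counts (estimated by RSEM) were deposited by the authors, and the deposited TPM values are the authors' length-scaled abundances. Percent values are the authors' share of a gene's TPM on each transcript. The deposited normalized signal, counts over 1 size factor per library, was used to name genes.

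Expected counts were rounded to whole numbers, filtered by filterByExpr and TMM-scaled. Two-sided quasi-likelihood tests were run in edgeR 4.0.16 under R 4.3.3, and p-values were adjusted by Benjamini-Hochberg over 14537 genes and a threshold of 0.05. For log2 CPM the prior count was 2. The SE is the absolute estimate divided by the square root of F, and intervals are at 95%. DESeq2 1.42.0 and limma 3.58.1 were alternatives. Python 3.11.15 made tables and figures. Positions are GENCODE M21 on GRCm38. No label says that libraries are separate cultures or animals beyond the line number, so p-values measure the spread between these libraries.

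Same-numbered libraries share an organoid line by their titles, which pairs them. Deviations from group means correlated at -0.30, 0.009 and 0.29 in lines 6, 23 and 34. Between heterozygous and LOH libraries of different lines they correlated at -0.39 to 0.30, a range that holds the same-line values. In counts simulated for this comparison, with known changes in a small share of genes and 14136 genes tested, the test called 64 of 67 changed genes at 16-fold, 35 of 67 at 4-fold and 2 of 66 at 2-fold. With the block it called 60, 28 and 1. Either fit also made 7 false calls. The simulation gave both groups the same dispersion and held no line effect. In the data the median log2 SD of tested genes was 0.21 in heterozygous and 0.45 in LOH libraries. The simulated shares therefore do not give the power of the test in these libraries.

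The members and lists were chosen with earlier results of these data known. The rule named all members and, of each list, genes that passed and up to 4 of the most abundant; markers near 0 are given as sums. Receptors, Casp1 and leukocyte markers named for their low counts, and the cluster gene Cxcl15, fall outside it and were chosen after their values were seen. Lists held receptors, other chemokines and cytokines, NF-kB, IL-18 maturation, shedding, LIF to STAT3, interferon regulators, and leukocyte, fibroblast, endothelial and epithelial markers. Fits without each library and each line, and with other scalings and filters, were also run.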

Additional observations from a re-analysis of the deposited data

Results flagged for a closer look

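For 7 of the 10 genes the LOH library was higher than its heterozygous partner in some organoid lines and lower in others. Of all tested genes only 44.5% had the same direction in the 3 lines, so mixed directions were common. Between the line with the highest ratio and that with the lowest, the log2 gap was 4.61 for Cxcl1, 3.69 for Cxcl2 and 2.96 for Lif. It was 2.37 for Cxcl5, 2.09 for Cxcl10, 1.91 for Ccl20 and 1.19 for Cxcl16. Cxcl1, Cxcl2, Lif, Cxcl10 and Cxcl16 had their highest ratio in line 34, as did Cxcl5, whereas Ccl20 had it in line 23. With 1 library of each genotype in a line, differences among lines were not tested. Cx3cl1, Csf1 and Il18 had the same direction in the 3 lines.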

How the results depend on the processing

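The test called 757 genes in all, and 213 with the replicate block of the organoid line, 2290 with DESeq2, 1911 with limma on log2(TPM + 1) and 1753 on log2(TPM + 0.1). Of the 757 genes 516 were higher in LOH, but 280 of 1911 and 267 of 1753 with limma. Leaving out a library or a line gave 0 to 2449 genes, with 2097 or more at an unadjusted p under 0.05. It was 0 without any 1 heterozygous library and without line 23 or line 34, and 2449 without the LOH library of line 6. RLE and upper quartile scaling and the 2 other filters stayed within 1.5 times. The median of all genes was 0.15 with no filter, -0.35 on log2(TPM + 1) and -0.42 on log2(TPM + 0.1). Cxcl2, Csf1, Cx3cl1 and Cxcl5 kept their sign in all 17 alternatives each. Without single libraries or lines Cxcl2 ran from 0.64 to 2.31, Cxcl5 from 0.68 to 1.62, Cx3cl1 from 0.76 to 1.33, Cxcl1 from -0.72 to 2.06, Cxcl16 from -0.16 to 0.51, Ccl20 from -0.42 to 1.03, Lif from -0.53 to 0.95, Cxcl10 from -0.47 to 1.57 and Cxcl3 from -0.38 to 0.86. On log2(TPM + 1) the sign turned for Cxcl16 (-0.15), Ccl20 (-0.0582), Lif (-0.35) and Cxcl3 (-0.17), and on log2(TPM + 0.1) for Cxcl1 (-0.0243), Cxcl16 (-0.16), Ccl20 (-0.0766), Lif (-0.56) and Cxcl3 (-0.22). Cxcl10 was -0.00172 with no filter and -0.0289 with DESeq2. The causes were not tested. The replicate block changed no call of the 9 genes, but moved Cxcl1 from 1.49 to 0.30, Lif from 0.47 to 0.13, Ccl20 from 0.65 to 0.27, Cxcl2 from 1.51 to 1.16 and Cxcl10 from 0.04 to 0.43. Cxcl10 and Il18 rest on at most 24 and 56 counts, and the counting interval of the Il18 ratio in line 34 includes 1.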
